A study of Rattus norvegicus with 6 samples.

Results

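The genes described here encode the coats, cargo receptors, tethers and membrane-fusion proteins that carry newly made proteins between the endoplasmic reticulum (ER) and the Golgi apparatus. A list of 44 genes was drawn up by function, with earlier results of these data known, and a gene was taken as measured where a probe set of the array was annotated to its symbol alone. This held for 42 of the 44, among 14217 genes measured in all, and each gene was read on its brightest probe set. Sec23a and Sec24a had no such probe set and were not analysed here. The measured members were 10 genes of the COPII coat, 12 of the COPI coat, 13 cargo receptors and 7 tethers or SNAREs.

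RNA came from GH4C1 cells, a clonal rat pituitary tumour line that makes prolactin and growth hormone. The R271W group was 3 cultures transduced with a lentiviral vector in which the PGK promoter drives POU1F1(R271W) and, through an IRES, EGFP. POU1F1 is the pituitary transcription factor of hormone-producing lineages, and the series title describes R271W as a dominant negative mutant of it. The control group was 3 cultures of the same line, for which the design text names a vector with the same promoter and EGFP alone. Both groups received virus with polybrene at a multiplicity of infection of 5 for 16 h, were kept in medium with horse and fetal calf serum, and were harvested 4 days later. The line still makes its own Pou1f1, all cultures belong to 1 line, and a sort for EGFP is not stated in the sources used here.

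Proteins leave the ER in vesicles coated by COPII, which assembles when the GTPase SAR1 is loaded with GTP by PREB at exit sites organised by SEC16A. An inner layer of SEC23 and SEC24 picks up cargo and an outer layer of SEC13 and SEC31 shapes the bud. Transmembrane cargo receptors couple soluble and membrane proteins to this coat, and COPI vesicles, built from coatomer and ARF GTPases, return those receptors and escaped ER residents from the Golgi. In hormone-producing pituitary cells this route carries prolactin and growth hormone towards the secretory granules.

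The values are MAS5 signals, a linear brightness per probe set, from 1 Affymetrix rat array per culture. Median signals ran from 25.5 to 26.9 on R271W arrays, against 22.4 to 22.9 on control arrays. The hybridisation spikes read 0.23 higher on the log2 scale on R271W arrays, and the 3' to 5' ratio of beta-actin was 1.96 ± 0.099 in R271W cells against 1.82 ± 0.0076 in control cells (SD, n = 3 each), both without overlap. The same ratio for Gapdh overlapped, at 0.981 ± 0.0153 in R271W cells against 0.993 ± 0.0599 in control cells (SD, n = 3 each). The part of these array differences in the results was not tested. The line's 3 lineage markers were bright on every array. Prl (prolactin) read 3006 to 3347 on R271W arrays and 4147 to 4522 on control arrays, and Pou1f1 1738 to 1898 on R271W arrays and 2222 to 2399 on control arrays. Both fell (log2 -0.45 and -0.33, limma adjusted p = 0.00048 and 0.00486), whereas Gh1 (growth hormone), at 5588 to 7287 on R271W arrays and 6085 to 6781 on control arrays, was not called (-0.03, adjusted p = 0.853). Their part in the results was not tested. Pou1f1 was read on the brighter of its 2 probe sets. Whether that probe set also detects the POU1F1(R271W) transcript was not tested. Of 15 measured marker genes of other pituitary, endothelial, glial and blood cells, none exceeded a signal of 56.6 on an R271W array or 37.8 on a control array. Their sums on an array overlapped between the groups, at 101 to 110 in R271W cells against 82.6 to 140 in control cells for 8 genes of other hormone lineages. For the remaining 7 they were 50.4 to 54.2 in R271W cells against 46.6 to 68.6 in control cells. In RNA from whole cultures, fewer cells of a kind and less RNA per cell cannot be told apart.

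Most of the cargo receptor genes were lower in R271W cells. Of 13 cargo receptors 10 fell and 0 rose, and all 13 read below 0 on the log2 scale. Of 10 COPII genes 4 fell and 0 rose, and of 12 COPI genes 2 fell and 0 rose. Among 7 tethers and SNAREs 1 fell and 1 rose. At an unadjusted p below 0.05 the same limma fit gave 12 cargo receptors, 8 COPII and 4 COPI genes that were lower, and 0 that were higher in each of these classes, with 1 tether or SNARE lower and 1 higher, where 15% of all genes were lower and 18.5% higher. In all, 17 of 42 members fell and 1 rose at a limma adjusted p below 0.05, which is 40.5% and 2.38%, whereas 8.98% of all 10143 genes tested fell and 9.87% rose. Calls are more frequent among bright genes: of 1718 genes with mean signals between 318 and 989, the interquartile range of the members, 20.5% fell and 11.5% rose, a comparison added after the data were seen. Every measured member passed the filter on dim probe sets, the dimmest, Golga2, averaging 73.1 in R271W cells and 65.7 in control cells.

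Median log2 fold changes (R271W minus control) were -0.42 for cargo receptors, -0.33 for COPII, -0.12 for COPI and -0.07 for tethers and SNAREs, beside 0.06 over all genes tested. The 1718 genes of like brightness had a median of -0.05, again a comparison added after the data were seen. That value is closer to the COPI and tether medians than 0.06 is. The arrays of a group gave similar class medians: set against the control mean of each gene, cargo receptors had medians of -0.47 to -0.44 on R271W arrays, against -0.03 to 0.02 on control arrays. COPII medians were -0.40 to -0.26 on R271W arrays, against -0.03 to 0.04 on control arrays. COPI medians were -0.16 to -0.07 on R271W arrays, against -0.01 to 0.01 on control arrays, so that all 3 classes were lower on every R271W array and the COPI shift was the smallest of them. Tethers and SNAREs overlapped, at -0.11 to 0.01 on R271W arrays and -0.02 to 0.04 on control arrays. Differences between classes have no test here, because the members were chosen with results known. Taken gene by gene, 23 of 42 members had all R271W arrays below all control arrays and 2 had them above, where 16.6% and 21.2% of all genes did so.

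**Figure D1:**
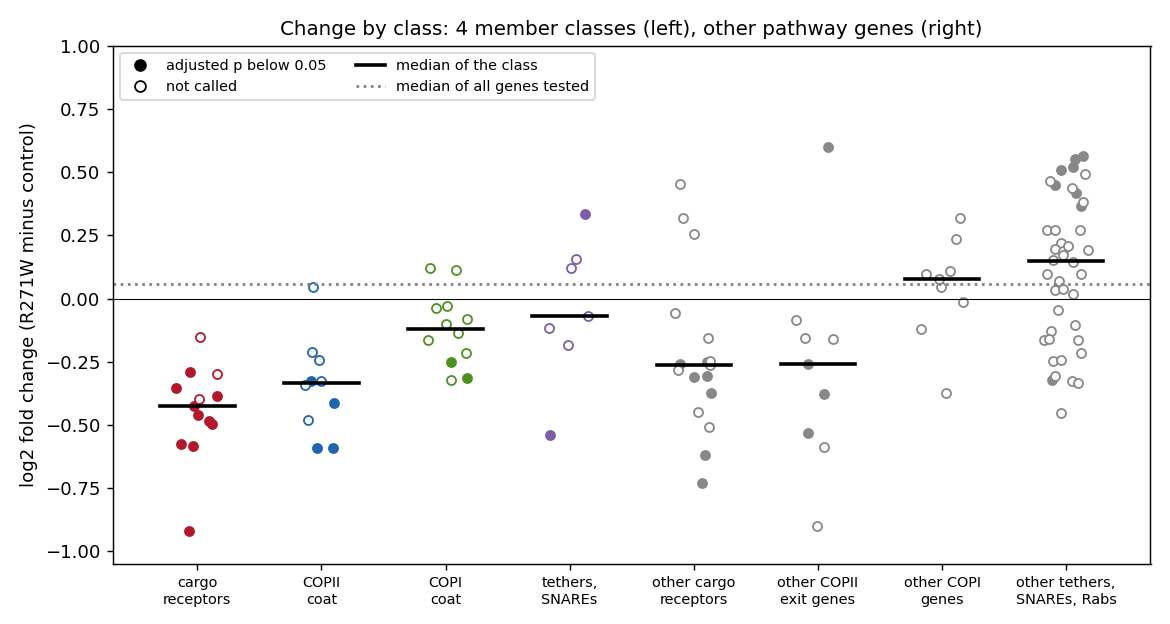
Each point is a gene, the vertical axis is its log2 fold change of signal (R271W minus control), filled points passed an adjusted p below 0.05, black bars are class medians and the dotted line is the median of all genes tested, 0.06. Cargo receptors (median -0.42) and COPII genes (-0.33) lie below COPI genes (-0.12), and the same classes of pathway genes outside the members lie at -0.26, -0.26 and 0.08.

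The scaling of the arrays bears on these counts. Centring each array on its median signal moved the median change of all genes to -0.14, and then 32 members fell and 0 rose, while 20.4% of all genes fell and 4.35% rose. With quantile normalization 14 members fell and 2 rose, beside 8.94% and 9.19% of all genes. Cargo receptors stayed ahead in calls under both scalings, with 13 of 13 lower after median centring and 9 of 13 after quantile normalization. Of the 10 COPII genes 8 and 4 were lower, and of the 12 COPI genes 7 and 0. By median, however, COPII (-0.329) lay slightly below the cargo receptors (-0.314) after quantile normalization. The variance model mattered too: without the intensity trend 4 members fell, which were Sec23b, Sec24d, Tmed9 and Lman1, and 0 rose, beside 2.81% and 3.57% of all genes. Those 4 were 2 of the 10 COPII genes and 2 of the 13 cargo receptors, so the cargo receptors were not ahead in number there.

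**Figure D2:**
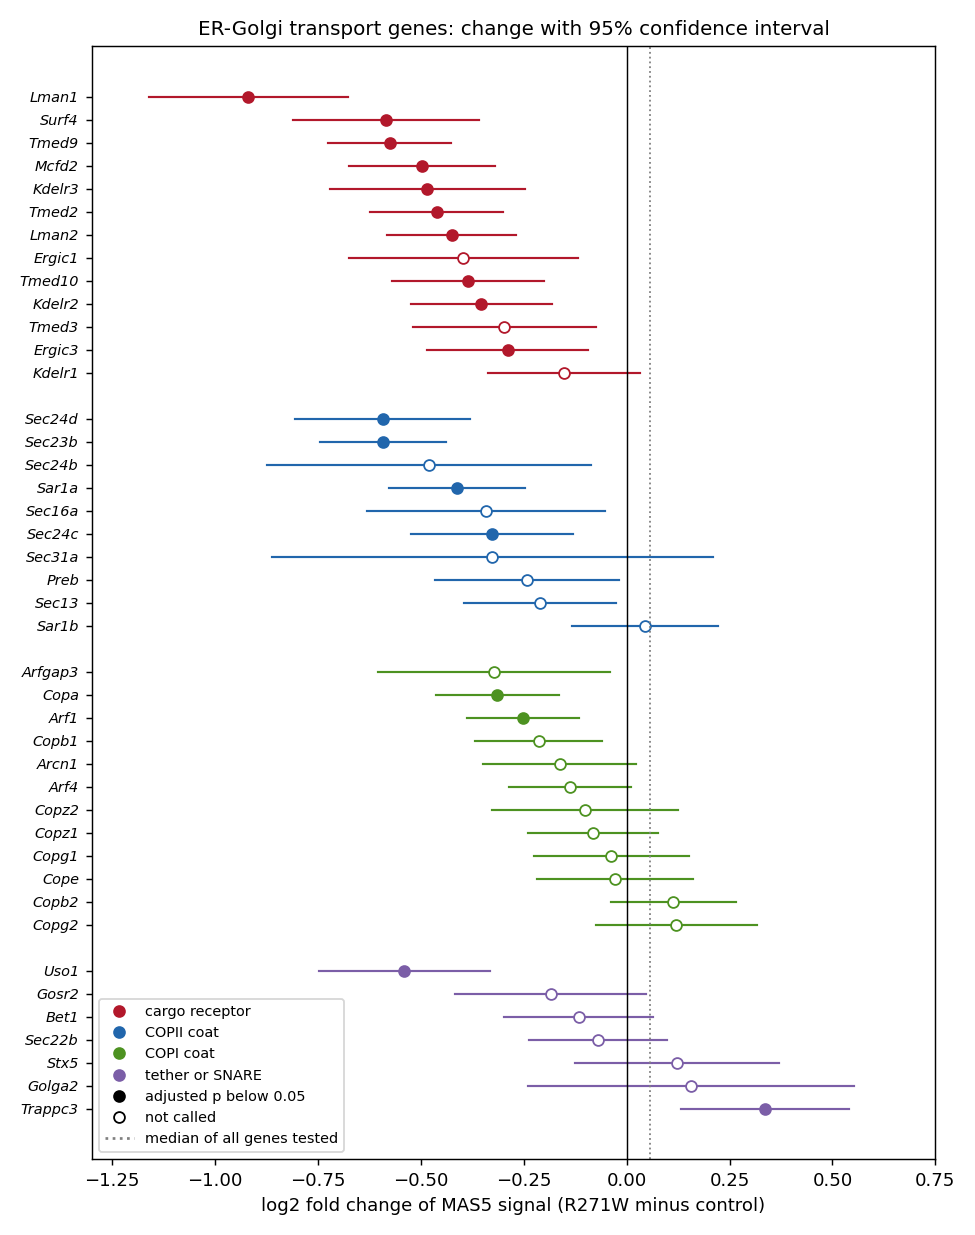
Each row is a member, the horizontal axis is its log2 fold change of signal (R271W minus control) with its 95% confidence interval, filled points passed an adjusted p below 0.05 and the dotted line marks the median of all genes tested. The 13 cargo receptors run from -0.92 (Lman1) to -0.15 (Kdelr1), and the COPI genes from -0.32 (Arfgap3) to 0.12 (Copg2).

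Because secretory genes often carry promoter elements that respond to unfolded proteins in the ER, the 250 bases before each gene's start were searched in RefSeq sequence of the rat build GRCr8, on both strands. Of the 44 listed genes 39 had a promoter in that table. The motif TGACGTGG, the core of the unfolded protein response element, was found in 6 of them, or 15.4%, beside 0.52% of all 33469 promoters and 0.535% of those of protein-coding genes. The 6 were Kdelr3, Arf1, Arf4, Copb2, Stx5 and Sec23a, the last of which was not measured. Kdelr3 and Arf1 fell, whereas Arf4, Copb2 and Stx5 were not called, so that 2 of 5 measured genes with the motif fell against 10 of 32 without it. The other 5 measured members, Kdelr2, Sec24c, Sar1a, Sec24d and Surf4, were not searched for want of a promoter in the table, and all 5 fell. The classical ER stress response element (CCAAT and CCACG separated by 9 bases) matched 0 of 39 and 0.0657% of all promoters, and its second form (ATTGG and CCACG separated by 1 base) 0 of 39 and 0.0418%. These elements share the letters CCACG with the reverse strand of TGACGTGG. The POU1F1 site TATNCAT matched 0 of 39 and 8.73% of all promoters. None of these shares was adjusted for the base composition of the windows, whose part in them was not tested. Promoter windows are shown 5' to 3' on the gene's strand for both genes that carried the core motif and fell, for a carrier that was not called (Copb2), and for the gene that fell furthest (Lman1), which had none of these motifs. Capitals mark TGACGTGG or its reverse complement. They lie at chr7:112959382-112959631 on the plus strand, chr10:44513995-44514244 on the minus strand, chr8:108040437-108040686 on the plus strand and chr18:61800821-61801070 on the minus strand, in the order printed.
Kdelr3: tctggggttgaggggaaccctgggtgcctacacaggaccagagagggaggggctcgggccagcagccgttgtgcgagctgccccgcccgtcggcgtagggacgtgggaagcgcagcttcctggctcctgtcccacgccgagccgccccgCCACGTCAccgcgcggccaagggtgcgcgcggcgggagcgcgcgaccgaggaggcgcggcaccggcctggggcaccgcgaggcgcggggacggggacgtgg
Arf1: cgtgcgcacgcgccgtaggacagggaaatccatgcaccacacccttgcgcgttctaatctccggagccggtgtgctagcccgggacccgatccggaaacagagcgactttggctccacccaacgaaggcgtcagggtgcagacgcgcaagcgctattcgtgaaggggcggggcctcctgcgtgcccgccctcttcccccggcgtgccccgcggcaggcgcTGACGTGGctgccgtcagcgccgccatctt
Copb2: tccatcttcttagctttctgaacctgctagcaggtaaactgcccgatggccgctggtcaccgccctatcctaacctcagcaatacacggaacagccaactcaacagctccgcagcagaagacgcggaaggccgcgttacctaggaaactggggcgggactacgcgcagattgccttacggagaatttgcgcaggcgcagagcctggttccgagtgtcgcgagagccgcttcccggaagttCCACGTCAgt
Lman1: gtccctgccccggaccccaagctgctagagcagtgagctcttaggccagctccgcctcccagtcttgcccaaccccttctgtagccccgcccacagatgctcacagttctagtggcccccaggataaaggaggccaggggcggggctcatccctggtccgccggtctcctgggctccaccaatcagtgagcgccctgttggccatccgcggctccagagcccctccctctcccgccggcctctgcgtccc

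In Kdelr3 the motif ended 94 bases before the gene's start and read on the antisense strand. In Arf1 it lay 30 to 23 bases before the start in the sense direction, and in Copb2 10 to 3 bases before it on the antisense strand. A match describes letters in this window, not a site in use.

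Among the cargo receptors the lectin Lman1 changed most. LMAN1, also known as ERGIC-53, binds mannose-rich glycoproteins and carries them out of the ER. Lman1 had signals of 185, 222 and 185 in R271W cells, against 392, 333 and 394 in control cells. All 3 R271W arrays lay below the lowest control array, and the level was 47.1% lower (log2 -0.92, 95% confidence interval -1.16 to -0.68, adjusted p = 0.000127). Mcfd2 encodes the soluble partner with which LMAN1 carries coagulation factors V and VIII in humans. Mcfd2 had signals of 552, 509.6 and 560.4 in R271W cells, against 809, 768 and 714 in control cells. The groups did not overlap, at -0.50 on the log2 scale (95% confidence interval -0.67 to -0.32, adjusted p = 0.00109). Its probe set is of the Affymetrix type whose probes can match several transcripts. Lman2, the related lectin VIP36, cycles through the Golgi. Lman2 had signals of 920.3, 914 and 830.2 in R271W cells, against 1195, 1212 and 1167 in control cells. Every R271W array was lower than every control array, at -0.42 on the log2 scale (95% confidence interval -0.58 to -0.27, adjusted p = 0.00142).

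Surf4 encodes the receptor for soluble proteins such as lipoproteins and growth factors. Surf4 had signals of 359.6, 381 and 343 in R271W cells, against 581, 592 and 460.1 in control cells. Control replicate 3 was the lowest control array and still lay above all R271W arrays, and the change was -0.58 on the log2 scale (95% confidence interval -0.81 to -0.36, adjusted p = 0.00198). A dimmer probe set of Surf4 gave -0.43 (adjusted p = 0.0251).

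The TMED genes encode small transmembrane proteins that form oligomers, enter both COPII and COPI vesicles and select lipid-anchored cargo. Tmed9 had signals of 936, 868 and 907 in R271W cells, against 1336, 1381 and 1322 in control cells. The groups were well apart for Tmed9, with a log2 fold change of -0.57 (adjusted p = 0.000116). A second probe set gave -0.63. Tmed2 had signals of 1555, 1337 and 1349 in R271W cells, against 1975, 1981 and 1871 in control cells. Tmed2 fell by 0.46 on the log2 scale without overlap (adjusted p = 0.00101), and by 0.41 on its other probe set. Tmed10 had signals of 670.4, 802 and 827 in R271W cells, against 984, 999.8 and 1007 in control cells. R271W replicate 1 was the lowest array for Tmed10, and the change was -0.39 (adjusted p = 0.00799). Tmed3 had signals of 295, 326 and 379 in R271W cells, against 407, 390.3 and 426 in control cells. The arrays of Tmed3 did not overlap either, but its change of -0.30 did not pass (adjusted p = 0.0696). Tmed9, Tmed2 and Tmed10 kept their calls in each of the 6 fits that left out an array.

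KDEL receptors catch chaperones that have escaped to the Golgi and return them in COPI vesicles. Kdelr2 had signals of 1615, 1614 and 1958 in R271W cells, against 2169, 2222 and 2205 in control cells. R271W replicate 3 was the highest of its group and remained below the controls, and Kdelr2 changed by -0.35 (adjusted p = 0.00852). Kdelr3 had signals of 256, 256 and 237 in R271W cells, against 353, 304 and 397 in control cells. The control arrays of Kdelr3, whose promoter is printed above, scattered more than its R271W arrays, and its change was -0.48 (adjusted p = 0.00867, or 0.0503 without control replicate 3). Kdelr1 had signals of 695, 721 and 699.8 in R271W cells, against 866, 703 and 793 in control cells. Kdelr1 had a change of -0.15 with arrays that overlapped (adjusted p = 0.264). Median centring gave Kdelr1 a change of -0.35 that passed.

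Ergic1 and Ergic3 encode membrane proteins of the ER-Golgi intermediate compartment. Ergic3 had signals of 692, 757 and 782 in R271W cells, against 1034, 849.8 and 851 in control cells. Ergic3 was lower on every R271W array, but its adjusted p of 0.0465 (log2 -0.29) lay at the threshold and was 0.0567 to 0.197 when any array except R271W replicate 3 was left out. Ergic1 had signals of 816, 899 and 1257 in R271W cells, against 1235, 1421 and 1199 in control cells. R271W replicate 3 overlapped the controls for Ergic1 while the other R271W arrays were well below them. The change of -0.40 was not called (adjusted p = 0.0525), and without R271W replicate 3 it was -0.58 (adjusted p = 0.000493).

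**Figure D3:**
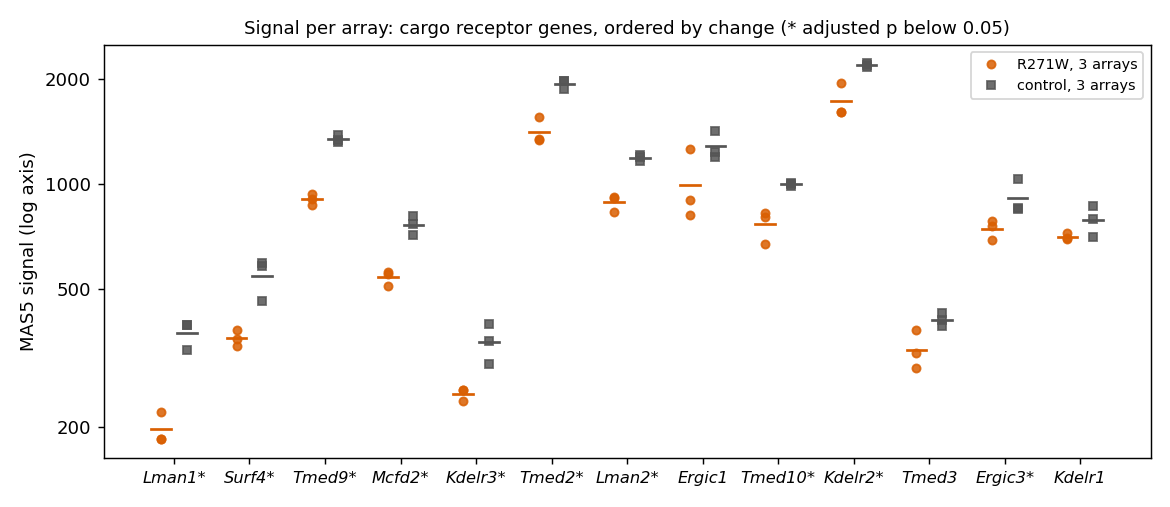
Each point is the MAS5 signal of an array (log axis) for the 13 cargo receptors in order of change, R271W as circles on the left and control as squares on the right of each gene, with group means as bars. For Lman1 the R271W arrays sit between 185 and 222 and the control arrays between 333 and 394, whereas the groups overlap for Ergic1 and Kdelr1.

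In the COPII coat the largest changes were in the inner, cargo-selecting layer. Sec23b encodes a GTPase-activating subunit of that layer. Sec23b had signals of 718, 715 and 694 in R271W cells, against 1073, 1097 and 1037 in control cells. The arrays of each group were tight and far apart, with a log2 fold change of -0.59 (95% confidence interval -0.74 to -0.44, adjusted p = 0.000108). SEC24 proteins hold the binding sites for cargo signals. Sec24d had signals of 298, 346 and 274 in R271W cells, against 465, 456 and 457 in control cells. Sec24d had no overlap and a change of -0.59 (95% confidence interval -0.81 to -0.38, adjusted p = 0.0012). Sec24c had signals of 448, 408 and 384 in R271W cells, against 504, 557 and 494 in control cells. Sec24c changed by -0.33 without overlap (adjusted p = 0.0266), but its adjusted p was 0.0572 to 0.118 without control replicate 1 or 2 or R271W replicate 2 or 3. Sec24b had signals of 95.6, 89.9 and 60.3 in R271W cells, against 118, 109.6 and 109 in control cells. Sec24b was dimmer, with R271W arrays that scattered below the controls, and its change of -0.48 was not called (adjusted p = 0.0944). The other probe set of Sec24b, of like brightness, read 0.32 without passing.

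Sar1a and Sar1b encode the GTPase that starts COPII assembly. Sar1a had signals of 714, 789.5 and 783 in R271W cells, against 960.1, 1036 and 1046 in control cells. All R271W arrays of Sar1a were below the controls (log2 -0.41, 95% confidence interval -0.58 to -0.25, adjusted p = 0.00249), while its other probe set read -0.16 with arrays that overlapped. Sar1b had signals of 563, 578 and 639.8 in R271W cells, against 557, 588 and 579 in control cells. The groups overlapped for Sar1b, with a change of 0.04 (adjusted p = 0.769). Preb, Sec16a, Sec13 and Sec31a, which activate SAR1, organise exit sites and form the outer layer, had log2 fold changes of -0.24, -0.34, -0.21 and -0.33, none of which passed (adjusted p from 0.105 to 0.423). Of these 4 genes only Preb had groups that did not overlap. A second probe set of Sec16a passed at -0.43 (adjusted p = 0.0436), with every R271W array lower.

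Among the subunits of coatomer, the COPI coat, Copa alone was called. Copa, the alpha subunit, is part of the cage that recognises dilysine retrieval signals. Copa had signals of 928, 999 and 926 in R271W cells, against 1189, 1177 and 1178 in control cells. Copa fell by 0.31 on the log2 scale, with every R271W array lower (95% confidence interval -0.46 to -0.16, adjusted p = 0.00769, or 0.0806 with quantile normalization, where the change was -0.19). Copb2, the beta' subunit of the same cage, read the other way. Copb2 had signals of 1235, 1227 and 1331 in R271W cells, against 1172, 1125 and 1208 in control cells. All its R271W arrays lay above the controls, but the change of 0.11 was not called (adjusted p = 0.315). It passed as higher under quantile normalization (0.23, adjusted p = 0.0216) and read -0.09 after median centring, so that its direction depends on the scaling. Copb1 had signals of 788, 815 and 808 in R271W cells, against 911, 974 and 911 in control cells. Copb1, the beta subunit, had no overlap and a change of -0.21 that did not pass (adjusted p = 0.0604).

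The other 6 coatomer genes, Arcn1, Cope, Copg1, Copg2, Copz1 and Copz2, had log2 fold changes from -0.16 to 0.12 and adjusted p values from 0.233 to 0.87. Their signals were 353.5 to 1271 on R271W arrays and 327 to 1180 on control arrays, except for Copz2 at 191 to 198 on R271W arrays and 197 to 216 on control arrays. The arrays of Arcn1 and Copz1 did not overlap, with R271W cells lower, and those of the rest did.

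Arf1 encodes the GTPase that recruits coatomer to membranes. Arf1 had signals of 2329, 2281 and 2497 in R271W cells, against 2796, 2853 and 2806 in control cells. It was lower on every R271W array, with a change of -0.25 (95% confidence interval -0.39 to -0.12, adjusted p = 0.0159). The dimmer probe set gave -0.39 (adjusted p = 0.00159). With quantile normalization the brighter probe set gave -0.14 and did not pass (adjusted p = 0.0802), and 4 of the 6 fits that left out an array gave adjusted p values of 0.0528 to 0.0682. Those were the fits without control replicate 1, 2 or 3 or R271W replicate 2. Arf4 had signals of 1900, 1918 and 2059 in R271W cells, against 2250, 2180 and 2035 in control cells. Arf4, a related GTPase, overlapped between the groups (log2 -0.14, adjusted p = 0.204). Arfgap3 had signals of 397, 356 and 266 in R271W cells, against 389, 453 and 417 in control cells. Arfgap3, which switches ARF GTPases off, scattered widely in R271W cells and its change of -0.32 was not called (adjusted p = 0.116).

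Vesicles are caught by tethers before SNARE proteins fuse them with the Golgi. Uso1 encodes the long coiled-coil tether p115. Uso1 had signals of 424, 551 and 484 in R271W cells, against 715, 716 and 680 in control cells. Its arrays did not overlap and it fell by 0.54 on the log2 scale (95% confidence interval -0.75 to -0.33, adjusted p = 0.00191). Uso1 kept its call in every fit that left out an array, with changes from -0.634 to -0.445. Trappc3, a core subunit of the TRAPP tethering complex, was the member that rose. Trappc3 had signals of 329, 300.3 and 316 in R271W cells, against 244, 246 and 259 in control cells. All R271W arrays were above the controls, with a change of 0.34 (adjusted p = 0.0282). That call did not hold after median centring (0.14, adjusted p = 0.376), nor in any of the 6 fits that left out an array, where the adjusted p was 0.0509 to 0.0853.

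The SNARE genes Sec22b, Bet1, Gosr2 and Stx5 and the Golgi matrix gene Golga2 had changes of -0.07, -0.12, -0.18, 0.12 and 0.16, with arrays that overlapped in all 5 and adjusted p values of 0.281 to 0.625. A dimmer probe set of Gosr2 differed from this, with signals of 128, 132 and 172 in R271W cells against 203, 219 and 205 in control cells. It passed at -0.55 (adjusted p = 0.0126).

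**Figure D4:**
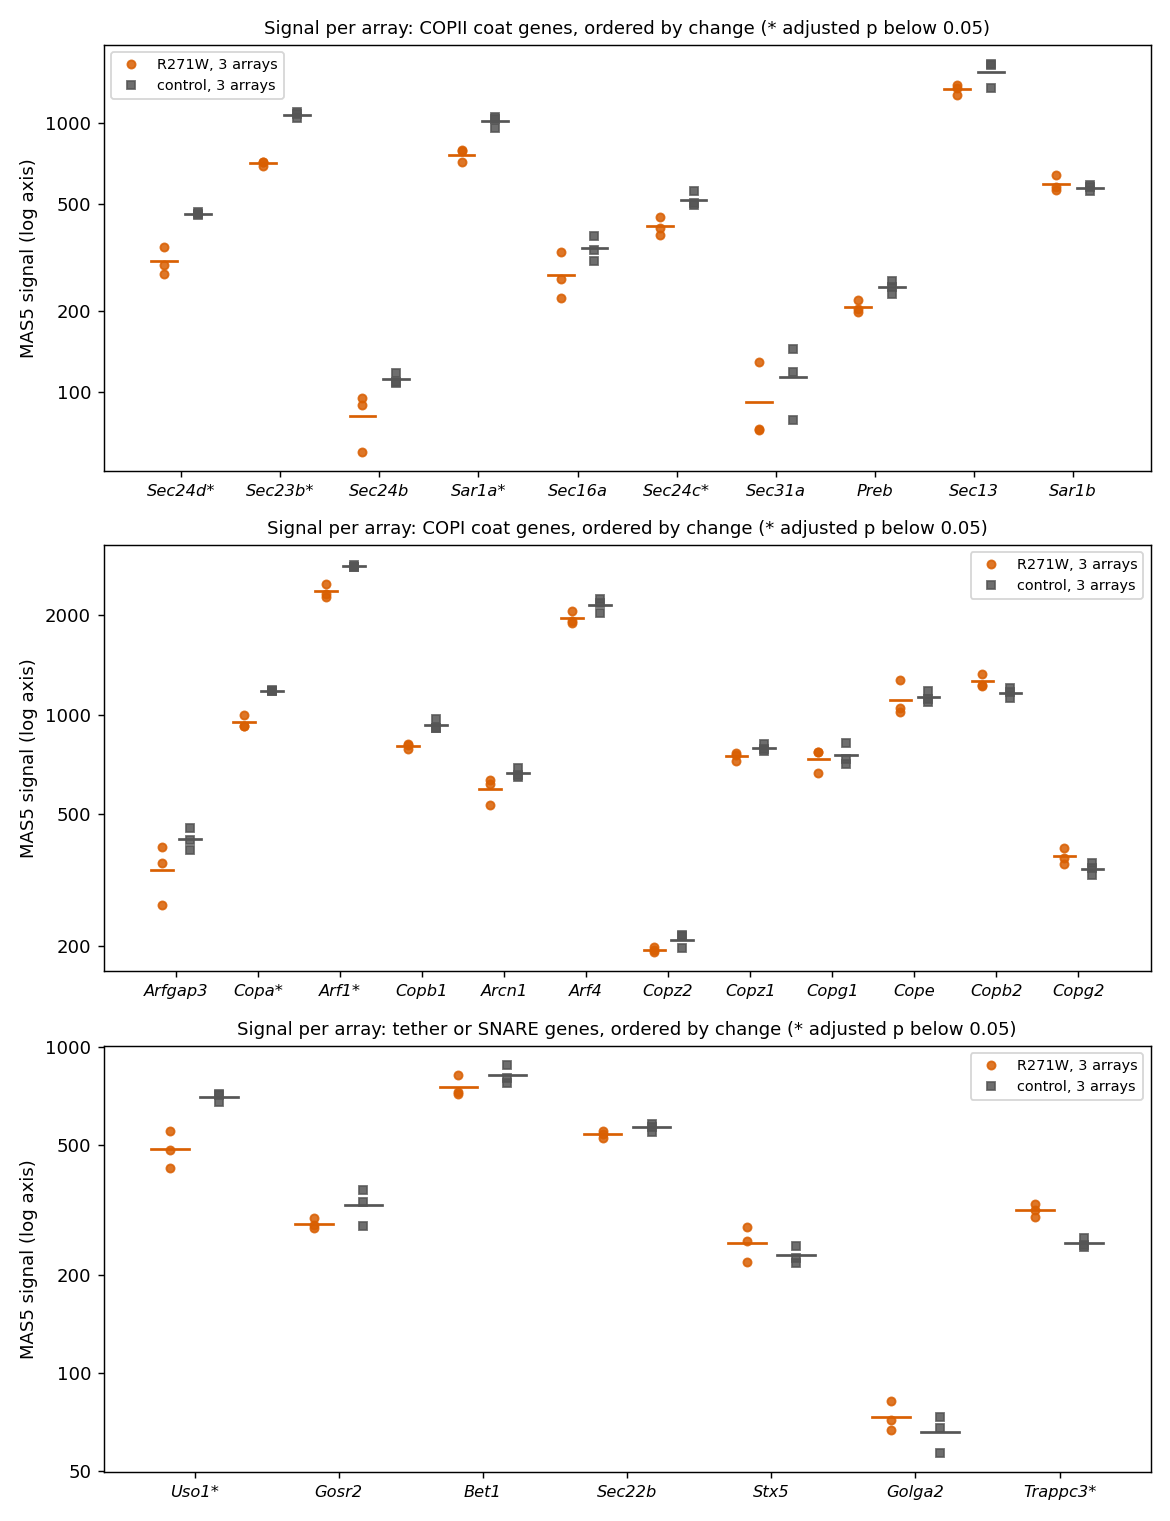
Each point is the MAS5 signal of an array (log axis) for COPII, COPI and tether or SNARE genes in order of change, R271W as circles on the left and control as squares on the right of each gene, with group means as bars. The groups are far apart for Sec23b (694 to 718 in R271W cells, 1037 to 1097 in control cells) and overlap for Sar1b, Cope and Sec22b.

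Related members were compared through the ratio of their signals on each array, in 10 pairs. Pairs with Sec23a or Sec24a could not be made. The log2 ratio of Lman1 to Lman2 differed by -0.49 (R271W minus control, within-group SD 0.13 in R271W cells and 0.16 in control cells), and that of Sar1a to Sar1b by -0.46 (SD 0.08 and 0.03). The latter rests on the brighter probe set of Sar1a, as the other one changed by only -0.16 with arrays that overlapped. The ratio of Arf1 to Arf4 differed by -0.11 (SD 0.02 and 0.07). In these 3 pairs the ratios did not overlap between groups, with an exact two-sided permutation p of 0.1, the smallest that 3 against 3 arrays can give (0.333 adjusted over 10 pairs). The remaining 7 ratios overlapped. Among them Sec24c to Sec24d was at 0.27, Tmed3 to Tmed9 at 0.28 and Kdelr1 to Kdelr2 at 0.20 (exact p of 0.2, 0.2 and 0.3), and the others lay between -0.16 and 0.13. This exact test cannot reach a p below 0.05 with 3 arrays a group, whatever the size of the difference.

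**Figure D5:**
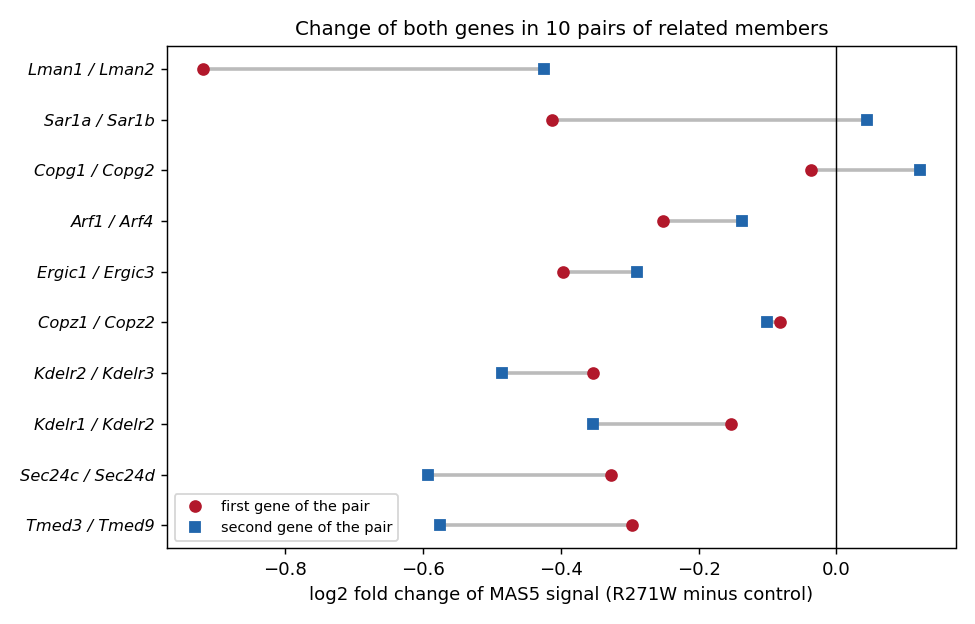
Each row is a pair of related genes, the circle is the log2 fold change of signal (R271W minus control) of the first and the square that of the second. The gap is widest for Lman1 (-0.92) and Lman2 (-0.42) and for Sar1a (-0.41 on its brighter probe set, -0.16 on the other) and Sar1b (0.04), and narrowest for Copz1 (-0.08) and Copz2 (-0.10).

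Other genes of the pathway were read from a wider list set by function. Of 86 such genes 77 were tested, of which 11 fell and 8 rose, or 14.3% and 10.4%, with a median of -0.01. Of all 10143 genes tested 8.98% fell and 9.87% rose, so the share of the wider list that rose was near that of all genes. Among 17 other cargo receptors and adaptors 7 fell and 0 rose (median -0.26), and among 9 other COPII exit genes 3 fell and 1 rose (median -0.26). Of 9 other COPI genes 0 were called by limma (median 0.08), with 1 lower and 1 higher at an unadjusted p below 0.05, and of 42 other tethers, SNAREs and Rab GTPases 1 fell and 7 rose (median 0.15). The 8 genes of the wider list that rose were mostly dimmer than the 11 that fell. Mean signals were 63.6 to 308 against 201 to 2433 in control cells, and 93.6 to 443 against 120 to 1945 in R271W cells. The part of brightness in this split was not tested. The 5 with the smallest p among those that fell were Tmem39a (-0.53), Mia3 (-0.38), Lman2l (-0.62), Rab2a (-0.32) and Tex261 (-0.37). Mia3 encodes TANGO1, which loads bulky cargo such as procollagen at ER exit sites. Mia3 had signals of 810.3, 883 and 837 in R271W cells, against 1132, 1090 and 1065 in control cells. Its arrays did not overlap (adjusted p = 0.00298). Lman2l encodes a lectin related to LMAN2. Lman2l had signals of 177, 196 and 157 in R271W cells, against 304, 246 and 266 in control cells. Its groups were apart as well (adjusted p = 0.00342).

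The 5 with the smallest p among those that rose were Klhl12 (0.60), Trappc2 (0.52), Use1 (0.37), Rab2b (0.51) and Trappc12 (0.45). Klhl12 encodes a ubiquitin ligase adaptor that enlarges COPII coats by modifying SEC31 in mouse and human cells. Klhl12 had signals of 494, 443 and 394 in R271W cells, against 304, 303 and 269 in control cells. The R271W arrays were all above the controls (adjusted p = 0.00155). Trappc2 and Trappc12 encode subunits of TRAPP, as Trappc3 does. Trappc2 had signals of 215, 219 and 224 in R271W cells, against 143, 161 and 156 in control cells. Its groups did not overlap (adjusted p = 0.00553). After median centring 27 genes of the wider list fell and 1 rose, beside 20.4% and 4.35% of all genes. Of the 5 named as higher, Klhl12 alone still passed after that centring.

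Of the members, 17 had a second probe set with the same symbol. Among 15 that could be tested, 13 had the sign of the brighter one, the exceptions being Sec24b and Copg1. Of the 6 that belonged to called members all had the same sign, and 4 passed as well: those of Arf1, Tmed2, Tmed9 and Surf4.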

How the data were processed

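Biotin-labelled RNA of 6 cultures was read on Affymetrix rat arrays, per the labels. The authors deposited linear intensity values, for which the submitters' processing notes name MAS5 without a version. The values show that arrays were scaled to a mean of 100 after 2% was trimmed at each end. Symbols came from the platform annotation, updated by Entrez ID through RefSeq (GRCr8).

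Signals were taken to log2 with no further scaling and fitted with limma 3.58.1 in R 4.3.3 (group as the only term, intensity trend, two-sided, Benjamini-Hochberg adjustment over 18625 probe sets). The filter required a mean log2 signal no lower than the 40th percentile (signal 11.2), and 10143 genes were tested. The test was tried on simulated data. The labels call the replicates biological. They are numbered alike in both groups, but deviations of same-numbered arrays correlated at -0.02 to 0.01, so no pairing was used. The number of arrays limits the precision.

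The members, classes, wider list and motifs were chosen with earlier results of these data known. Per-array values were to be given for called members and for pairs, and up to 5 genes of the wider list named in each direction. Alternatives covered scaling, filter, dim signals, variance model, threshold, a replicate block, probe set choice and leaving out each array. Promoter sequences are from RefSeq (GRCr8), and figures were drawn with matplotlib 3.10.9.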

Additional observations from a re-analysis of the deposited data

How the results depend on the processing

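All 18 called members kept their direction in 14 alternatives and in the 6 fits that left out an array, and 13 kept their call in each of those 6 fits. Lman1, Tmed9, Sec23b and Sec24d passed in every one. Direction could change only with the scaling, offset, array weights, probe set choice or a left-out array. The filters, floor, variance trend, robust fit, replicate block and threshold left the log2 fold changes of members as they were. For a member without a second probe set, that setting reused its only one. Under median centring 32 members fell and 0 rose, with class medians of -0.53 (COPII), -0.32 (COPI), -0.62 (cargo receptors) and -0.27 (tethers and SNAREs), and 27 genes of the wider list fell and 1 rose, beside 20.4% and 4.35% of all genes tested. Under 75th percentile centring 24 fell and 0 rose, the medians were -0.42, -0.20, -0.51 and -0.15, and 19 of the wider list fell and 4 rose, beside 12.9% and 6.81% of all genes. Quantile normalization gave 2 members that rose and medians of -0.329 (COPII), -0.046 (COPI), -0.314 (cargo receptors) and -0.007 (tethers and SNAREs). COPII then had the lowest median, slightly below that of the cargo receptors. With no trend in the variance model 4 members fell and 0 rose, with 0 and 1 of the wider list and 2.81% and 3.57% of all genes, and by limma with the trend these were 17, 1, 11 and 8, with 8.98% and 9.87%. The replicate block left 15 members that fell and 0 that rose, beside 7.61% and 8.36% of all genes, and 0 members rose at an adjusted p below 0.01, where 4 of the wider list fell and 2 rose, beside 5.32% and 4.48%. The second probe set moved the medians of COPII to -0.28 and of tethers and SNAREs to -0.14, and the mean over probe sets moved the last to -0.12. Leaving out an array gave 14 to 18 members that fell and 0 that rose, beside 6.47% to 9.16% and 6.34% to 8.31% of all genes. The COPII median then ran from -0.39 to -0.28, COPI from -0.16 to -0.094, cargo receptors from -0.45 to -0.39 and tethers and SNAREs from -0.08 to -0.05. In the wider list 5 to 12 fell and 4 to 6 rose. Without control replicate 2 it was 5 that fell, and without control replicate 1, control replicate 3 or R271W replicate 2 it was 7. The number that rose was 4 without control replicate 1 or R271W replicate 2 and 5 without control replicate 2 or 3, against 8 with all arrays. Among its called genes Bet1l read -0.35 on its second probe set and Tmed7 0.05 as a mean over probe sets, both opposite in sign to the brightest. Centring moves all genes of an array alike, and the cause of the other shifts was not tested.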
